A study of Homo sapiens with 5 samples.

Results

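ATF3 binding was examined at 9 genes of the TGF-β pathway and its ID targets, chosen by name: *TGFB1*, *TGFBR2*, *BAMBI*, *SMAD3*, *SMAD7*, *SKIL*, *ID1*, *ID2* and *ID3*, out of 20162 protein-coding genes. A peak was assigned to a gene when its centre lay between 20 kb upstream of the transcription start site (TSS) and the end of the gene. ATF3, a stress-inducible transcription factor, was mapped by ChIP-seq. The cells were HCT116, a line from a human colorectal cancer. The ATF3-Ctrl library came from ATF3-WT cells given DMSO, the ATF3-CPT library from ATF3-WT cells given 1.5 μM of camptothecin (CPT) for 4 h, and the ATF3-KO library from ATF3-KO cells given DMSO. p53 was mapped in p53-WT cells under the same CPT dose (p53-CPT) and in p53-knockout cells given DMSO (p53-KO), so these libraries differ in both genotype and treatment. All 5 chromatin samples were fixed in DSG (1 mM, 45 min) and then in formaldehyde (1%, 10 min), and 2 μg of antibody was used. ATF3-KO cells were made by homologous recombination after adenoassociated virus infection and selected as single clones, and CPT-treated ATF3-KO cells were not analysed here. Each condition had 1 library, so no test between conditions was possible, and the intervals of heights and ratios given below cover counting error only.

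TGF-β ligands bind the receptor TGFBR2, which recruits and activates a type I receptor, and this phosphorylates SMAD3 to enter the nucleus with SMAD4 and bind regulatory DNA. SMAD7, SKIL (SnoN) and the pseudoreceptor BAMBI restrain the pathway, and ID1, ID2 and ID3 are helix-loop-helix proteins without a DNA-binding domain that sequester other factors of this class and respond to BMP and TGF-β signals. ATF3 is known as a partner of SMAD3 at *ID1*, and CPT, a topoisomerase I poison, damages DNA. HCT116 cells are deficient in mismatch repair and carry an inactivating mutation of *TGFBR2*, which limits them as a model of ligand signalling. The peak lists hold no expression values, so the labelled cell line could not be checked against its markers.

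ATF3-CPT peak sequences are shown for the sites to which the following results refer, read from GRCh37 (the hg19 build) on the plus strand. Capitals mark exact matches to TGACGTCA (the ATF/CRE core, its own reverse complement), TGACTCA (the AP-1 core, or TGAGTCA on the other strand) or TTGCGCAA (a C/EBP palindrome). *ID1*, *ID2*, *SKIL* and *BAMBI* are shown for their cores, *ID3* as the shared site of its gene, *SMAD3* +23.8 kb and +25.8 kb for 2 of the 3 largest gains after CPT, and *TGFBR2* -9.1 kb for its lower height after CPT. *SMAD3* -16.0 kb is the highest ATF3-CPT peak and holds no match. For the peaks at the TSS of *SKIL* and *TGFBR2*, only 30 bases around the core are given.
ID1 -0.9 kb, chr20:30192123-30192247: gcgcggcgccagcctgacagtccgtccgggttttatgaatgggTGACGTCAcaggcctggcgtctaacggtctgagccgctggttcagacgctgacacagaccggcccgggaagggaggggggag
ID2 -19.4 kb, chr2:8802765-8802889: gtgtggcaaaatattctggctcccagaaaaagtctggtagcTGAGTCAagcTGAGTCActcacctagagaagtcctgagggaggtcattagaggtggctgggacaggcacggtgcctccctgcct
ID3 -3.0 kb, chr1:23888931-23889055: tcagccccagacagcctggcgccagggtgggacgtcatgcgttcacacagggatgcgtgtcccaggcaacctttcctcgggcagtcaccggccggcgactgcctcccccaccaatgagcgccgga
SMAD3 -16.0 kb, chr15:67341892-67342016: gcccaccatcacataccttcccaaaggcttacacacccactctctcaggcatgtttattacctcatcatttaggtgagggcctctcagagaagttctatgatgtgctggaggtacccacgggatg
SMAD3 +23.8 kb, chr15:67381655-67381779: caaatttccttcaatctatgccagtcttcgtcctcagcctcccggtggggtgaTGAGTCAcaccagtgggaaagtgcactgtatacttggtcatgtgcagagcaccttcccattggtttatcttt
SMAD3 +25.8 kb, chr15:67383688-67383812: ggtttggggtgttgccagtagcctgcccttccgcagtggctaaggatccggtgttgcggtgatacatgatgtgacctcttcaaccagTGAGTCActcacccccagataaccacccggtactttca
TGFBR2 -9.1 kb, chr3:30638882-30639006: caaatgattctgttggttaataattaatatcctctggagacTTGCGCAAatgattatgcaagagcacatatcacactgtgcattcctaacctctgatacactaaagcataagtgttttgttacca
TGFBR2 TSS, chr3:30648076-30648105: ttgaagttgagTGAGTCActcgcgcgcacg
SKIL TSS, chr3:170075438-170075467: cgaggactcggTGACGTCAgagggctgtgt
BAMBI -16.3 kb, chr10:28950100-28950224: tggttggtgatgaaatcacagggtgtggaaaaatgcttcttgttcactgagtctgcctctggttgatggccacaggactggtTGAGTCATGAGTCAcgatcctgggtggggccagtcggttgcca

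The 2 ATF3 libraries from ATF3-WT cells held 12947516 (ATF3-Ctrl) and 15457013 (ATF3-CPT) tags, and the ATF3-KO library held 12820520 tags. The 2 p53 libraries were shallower, with 3169743 (p53-CPT) and 1984941 (p53-KO) tags. The lists comprised 33966, 70702, 2231, 9211 and 7879 peaks in the order ATF3-Ctrl, ATF3-CPT, ATF3-KO, p53-CPT and p53-KO. The share of tags in peaks was 5.6% in ATF3-Ctrl and 12.76% in ATF3-CPT, and this difference bears on every comparison of signal between them. Peak heights below are normalized tag counts, that is, tags per 10000000 tags of the library, and the lowest heights listed were 5.4 in ATF3-Ctrl, 4.5 in ATF3-CPT, 6.2 in ATF3-KO, 18.9 in p53-CPT and 25.2 in p53-KO. In bulk chromatin, more bound cells and more binding per cell cannot be told apart.

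All 9 genes had at least 1 ATF3 peak both before and after CPT. Over all protein-coding genes, 64% had an ATF3-Ctrl peak and 80.3% an ATF3-CPT peak in the same kind of window. With only peaks of a findPeaks score (an unscaled tag number) of at least 20, 6 of the 9 genes had an ATF3-Ctrl peak and 9 an ATF3-CPT peak. The windows of the 9 genes held 52 ATF3-Ctrl peaks and 62 ATF3-CPT peaks, or 0.981 and 1.169 peaks per 10 kb, where all genes pooled had 0.18 and 0.362. Windows of neighbouring genes can share peaks in the pooled values. *SMAD3* accounted for 24 and 26 of these peaks, and *TGFBR2* for 13 in each list, in windows of 149.6 kb and 107.5 kb. Peak density, which allows for window length, was also high at *ID1*, where 98.7% of all genes had a lower density in ATF3-Ctrl and 94.2% in ATF3-CPT. At *SKIL* the corresponding shares were 50.9% and 28.1%, so ATF3 peaks were not dense at every gene of the pathway.

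**Figure D1:**
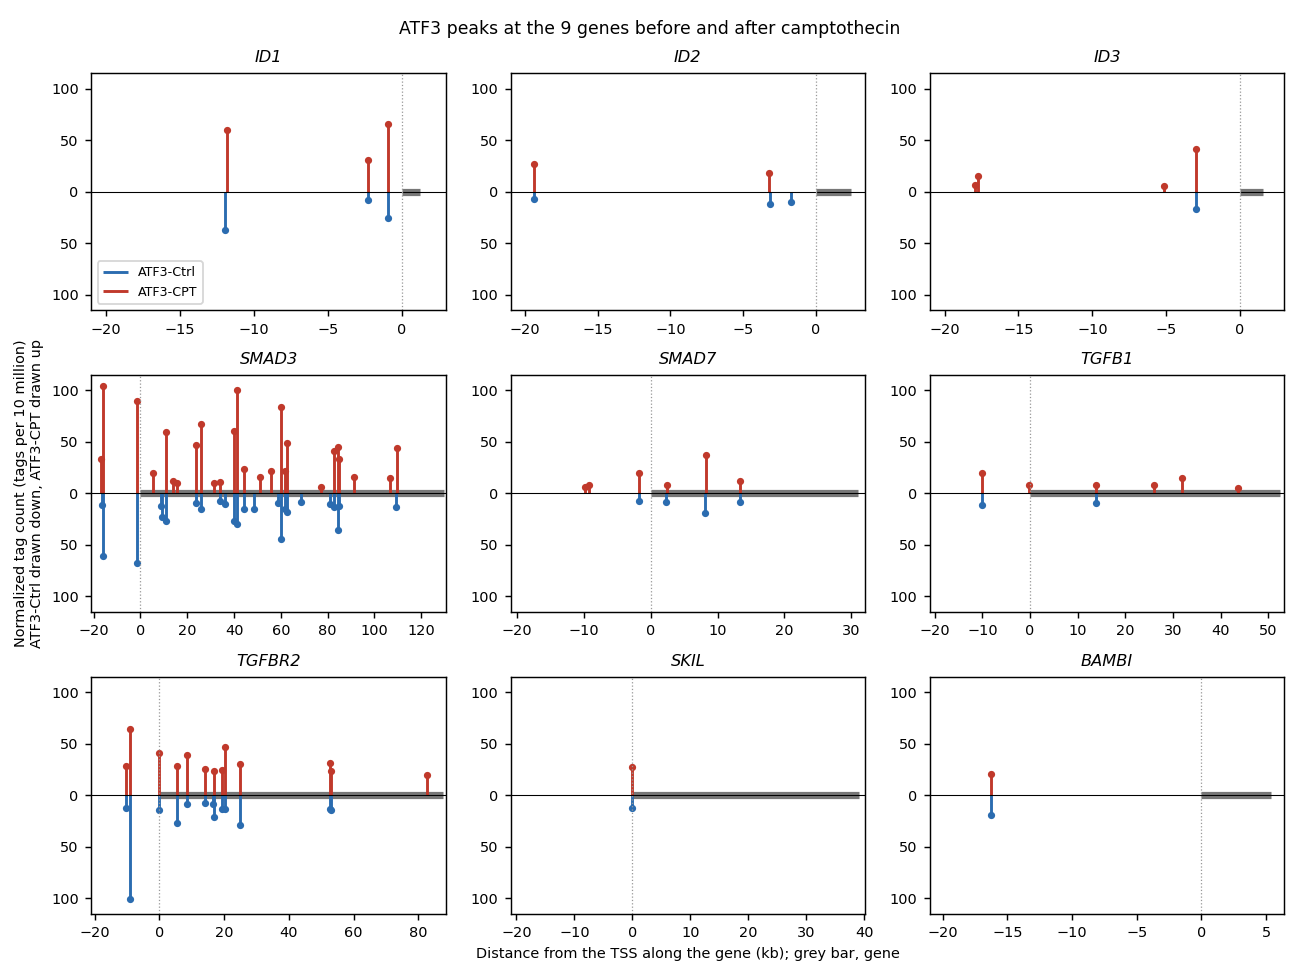
Every ATF3 peak at the 9 genes, by distance from the TSS in kb (x axis, positive into the gene, grey bar) and height in tags per 10000000 (y axis), with ATF3-CPT drawn up and ATF3-Ctrl drawn down. SMAD3 and TGFBR2 carry many intronic peaks, with heights up to 104.2 in ATF3-CPT at SMAD3 and 101.2 in ATF3-Ctrl at TGFBR2, whereas SKIL and BAMBI carry 1 peak in each library.

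No peak of the ATF3-KO list lay at any of the 9 genes, where 11.1% of all protein-coding genes had one. Of the ATF3-WT peaks at these genes, all 52 in ATF3-Ctrl and 59 of 62 in ATF3-CPT were at or above the lowest height listed in ATF3-KO. Fewer, 42 of 52 and 52 of 62, were above the tag threshold of the ATF3-KO list, 11 tags or a height of 8.58. ATF3-KO peaks were also wider, at 198 bp, so a lower peak could be missed there and heights are not strictly alike. A p53-CPT peak was found at 1 of the 9 genes (background 20.8%), and a p53-KO peak at 1 of the 9 (background 16.6%). Both were at *SMAD7*, in intron 3, at chr18:46462315-46462633 with a height of 18.9 (95% Poisson interval 6.9 to 41.2) in p53-CPT and at chr18:46462323-46462633 with 30.2 (11.1 to 65.8) in p53-KO. Each rested on 6 tags, and the cells without p53 gave a peak at the same place. At this depth no p53-CPT peak without a p53-KO counterpart was listed at the 9 genes.

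Of the 62 ATF3-CPT peaks, 40 overlapped an ATF3-Ctrl peak by at least 1 bp and 22 did not (35.5%, Wilson interval 24.7 to 47.9), compared with 61.7% over the whole list. In the other direction, 12 of the 52 ATF3-Ctrl peaks overlapped no ATF3-CPT peak (23.1%, 13.7 to 36.1), and the share over the whole list was 20.2%. The Wilson intervals treat peaks as independent, although 26 of the 62 ATF3-CPT peaks were at *SMAD3*. They are therefore no test against the whole list. Peaks of these genes numbered 1.19 times as many after CPT as before it, whereas the whole list grew 2.08-fold. These values depended on the peaks admitted. At a findPeaks score of at least 20, the 9 genes had 21 peaks before and 48 after CPT (2.29-fold, whole list 3.19-fold), and 30 of the 48 were CPT-only (62.5%, whole list 71.6%). This cut applied to both lists, so an ATF3-CPT peak over an ATF3-Ctrl peak with a score under 20 counted here as CPT-only. The 30 are therefore not all sites without a listed ATF3-Ctrl peak. With the ATF3-CPT list cut by score to the length of the ATF3-Ctrl list, the genes had 52 peaks before and 49 after CPT, of which 12 were CPT-only (24.5%, whole list 36.2%) and 15 Ctrl-only (28.8%, whole list 36.2%). The 22 CPT-only peaks were low, with a median of 13.6 and a range of 5.2 to 60.2, while the CPT heights of the 40 shared sites had a median of 31.4. Without *SMAD3*, 12 of 36 ATF3-CPT peaks were CPT-only. Because peaks had a fixed width of 126 or 124 bp, 3 CPT-only peaks had an ATF3-Ctrl peak centre within 200 bp, at *ID1*, *SMAD3* and *SMAD7*.

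**Figure D2:**
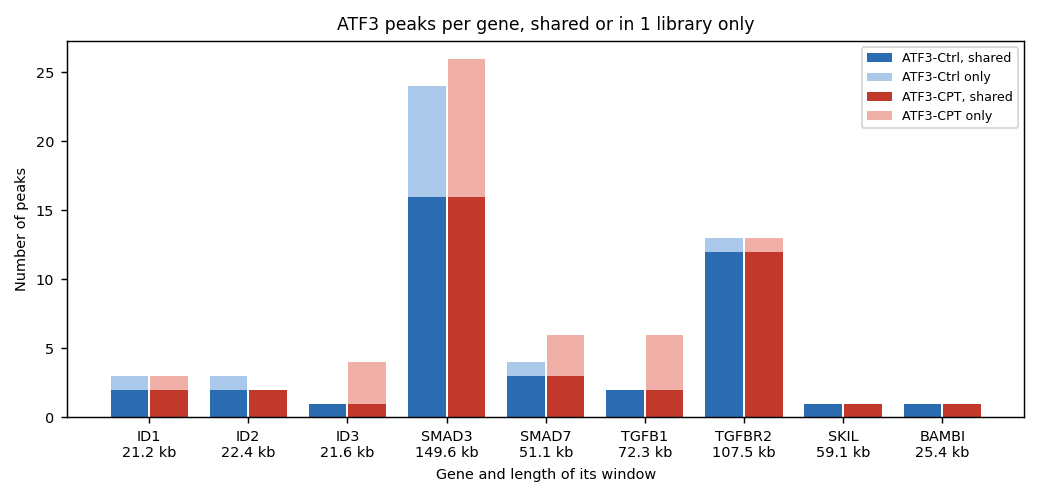
Number of ATF3 peaks (y axis) at each gene, with the window length in kb under its name; dark bars are peaks shared between the libraries and light bars are peaks in 1 library only. CPT-only peaks number 10 at SMAD3 and 4 at TGFB1, while SMAD3 also has 8 peaks seen in ATF3-Ctrl only.

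Shared sites of the 9 genes were mostly higher in ATF3-CPT than in ATF3-Ctrl when tags were scaled by library total. The same held for 80.4% of all shared sites. The ratio of heights, CPT over Ctrl, had a median of 2.20 over the 40 sites, compared with 1.795 over all 27104 shared sites. A ratio of at least 2 was found at 21 of the 40 sites (52.5%), near the 43.6% of all sites, and a ratio of at most 0.5 at none of them, where 2.37% of all sites had one. The 95% interval of the ratio lay above 1 at 25 sites and below 1 at 1 site, counts for which no share over all sites is given. These directions depended on the scaling. With ratios divided by the median of all shared sites, 5 sites were 2-fold higher and 2 were 2-fold lower, and with scaling by the tags in peaks 3 were higher, 6 lower, and the median ratio was 0.965. The ratio stayed above 1 under all 3 scalings at 17 sites, a count that takes no account of counting error. The other scalings lower every ratio, so the 3 sites below 1 by library total could not move above it.

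**Figure D3:**
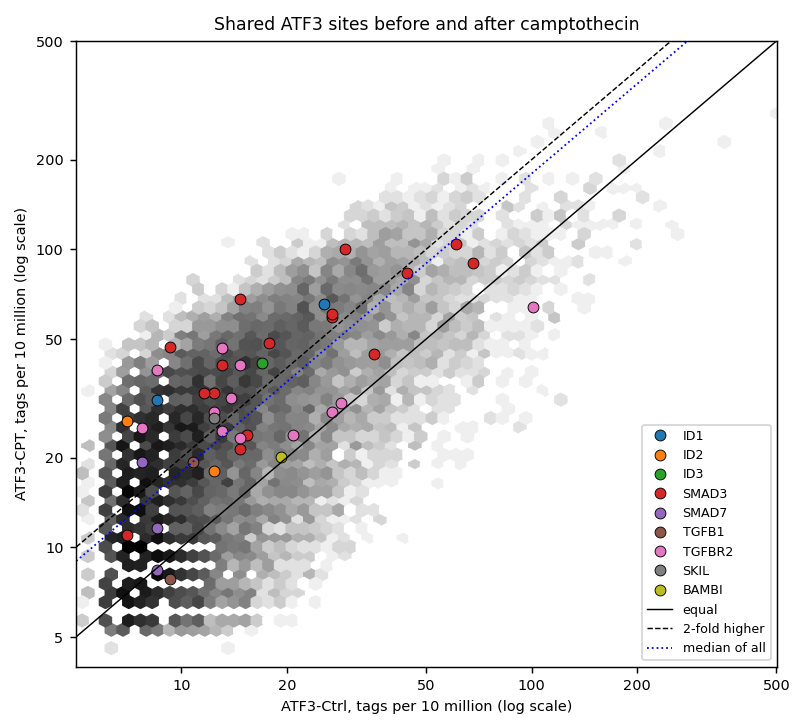
Height of shared ATF3 sites in ATF3-Ctrl (x axis) and ATF3-CPT (y axis), both in tags per 10000000 on log scales, with all 27104 sites as grey density and the sites of the 9 genes as coloured points. Most of the 40 coloured points lie above the line of equality, scattered about the median of all sites (dotted), and the TGFBR2 site at -9.1 kb lies furthest below equality; under scaling by tags in peaks 17 points would lie above equality.

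Among the ligand and receptors, *TGFBR2*, the type II receptor, carried the widest spread of changes. It had 12 shared sites, compared with 2 at *TGFB1* and 1 at *BAMBI*, so this spread also reflects site number. The upstream *TGFBR2* site at -9.1 kb (chr3:30638882-30639006, CPT) had 101.2 (84.6 to 120.1) in ATF3-Ctrl and 64.0 (52.1 to 78.0) in ATF3-CPT. This was the highest ATF3-Ctrl peak of all 9 genes, and the ratio was 0.633 (95% interval 0.483 to 0.828) by library total. The other scalings lower every ratio, so they could not bring this one above 1. In contrast, the TSS peak of *TGFBR2*, which holds an AP-1 core, had 14.7 before and 40.8 after CPT (ratio 2.78, 1.64 to 4.91). The intron 1 sites at +8.5 kb and +20.4 kb had 8.5 and 13.1 before CPT and 39.5 and 46.6 after it. Higher by at least 2-fold were also -10.3 kb (12.4 and 28.5), +14.1 kb (7.7 and 25.2) and, in intron 3, +52.8 kb (13.9 and 31.7). At +17.0 kb, +19.4 kb and +53.1 kb the ratios were 1.15, 1.87 and 1.59. At +5.5 kb and +24.8 kb the ratios were 1.05 and 1.06, with intervals that included 1. The interval at -9.1 kb did not overlap that at +8.5 kb (2.42 to 9.79). These were picked as the lowest and highest ratios of the gene, and their ATF3-Ctrl heights, which are part of the ratio, were 101.2 and 8.5. The gap is therefore no test of a difference between sites. *TGFBR2* also had 1 CPT-only peak, in intron 6 at +82.7 kb with 19.4 (13.1 to 27.7), and 1 Ctrl-only peak, in intron 1 at +16.6 kb with 8.5 (4.2 to 15.2).

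*TGFB1*, the ligand, had low peaks only. Its highest ATF3-CPT and ATF3-Ctrl peaks were the same site 10.0 kb upstream, with 10.8 before CPT and 19.4 after it (ratio 1.80, 0.92 to 3.66), and this site lay 256 bp from the TSS of the neighbour *B9D2*. A peak 214 bp upstream of the *TGFB1* TSS was found in ATF3-CPT only, at 7.8 (4.0 to 13.6). The other 3 CPT-only peaks lay past the end of the canonical transcript, within the annotated gene extended by readthrough transcripts, and were nearer to *CCDC97*. *BAMBI*, the pseudoreceptor, had a single site 16.3 kb upstream with 19.3 (12.5 to 28.5) before and 20.1 (13.6 to 28.5) after CPT. The interval of its ratio, 1.04 (0.59 to 1.84), held both 1 and the median of all sites. This peak holds 2 adjacent AP-1 cores.

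*SMAD3*, the receptor-regulated SMAD, had the highest ATF3-CPT peak of the 9 genes. It lay 16.0 kb upstream (chr15:67341892-67342016), with 61.0 (48.3 to 76.0) before and 104.2 (88.7 to 121.5) after CPT. Its highest ATF3-Ctrl peak lay 1.5 kb upstream of the canonical TSS, in the promoter but within the annotated gene. This peak had 68.0 (54.5 to 83.7) before and 89.9 (75.6 to 106.2) after CPT (ratio 1.32, 1.01 to 1.75). Among the 3 largest ratios of the 40 sites, 2 were at intron 1 sites of this gene, each with an AP-1 core. At +23.8 kb the height was 9.3 before and 47.2 after CPT (ratio 5.10, 2.75 to 10.31), and at +25.8 kb it was 14.7 and 67.9 (ratio 4.63, 2.82 to 7.99). The +41.5 kb site, which holds no exact core, had 29.3 and 100.3 (ratio 3.42, 2.38 to 5.01). In intron 1, +60.1 kb had 44 and 83.5 (ratio 1.90), +39.8 kb had 27.0 and 60.8 (2.25), +10.8 kb had 27.0 and 59.5 (2.20) and +84.6 kb had 35.5 and 44.6 (1.26). Of the 16 shared *SMAD3* sites, 9 were at least 2-fold higher and none was below 1, and under scaling by tags in peaks 7 of 16 were above 1. The 10 CPT-only *SMAD3* peaks ranged from 6.5 to 44 and the 8 Ctrl-only peaks from 8.5 to 23.2. The highest CPT-only peak lay in intron 5 at +109.6 kb, with its centre 126 bp from a Ctrl-only peak of 13.1. The highest Ctrl-only peak lay in intron 1 at +9.4 kb, with 23.2 (15.6 to 33.1) before CPT and no ATF3-CPT peak over it.

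**Figure D4:**
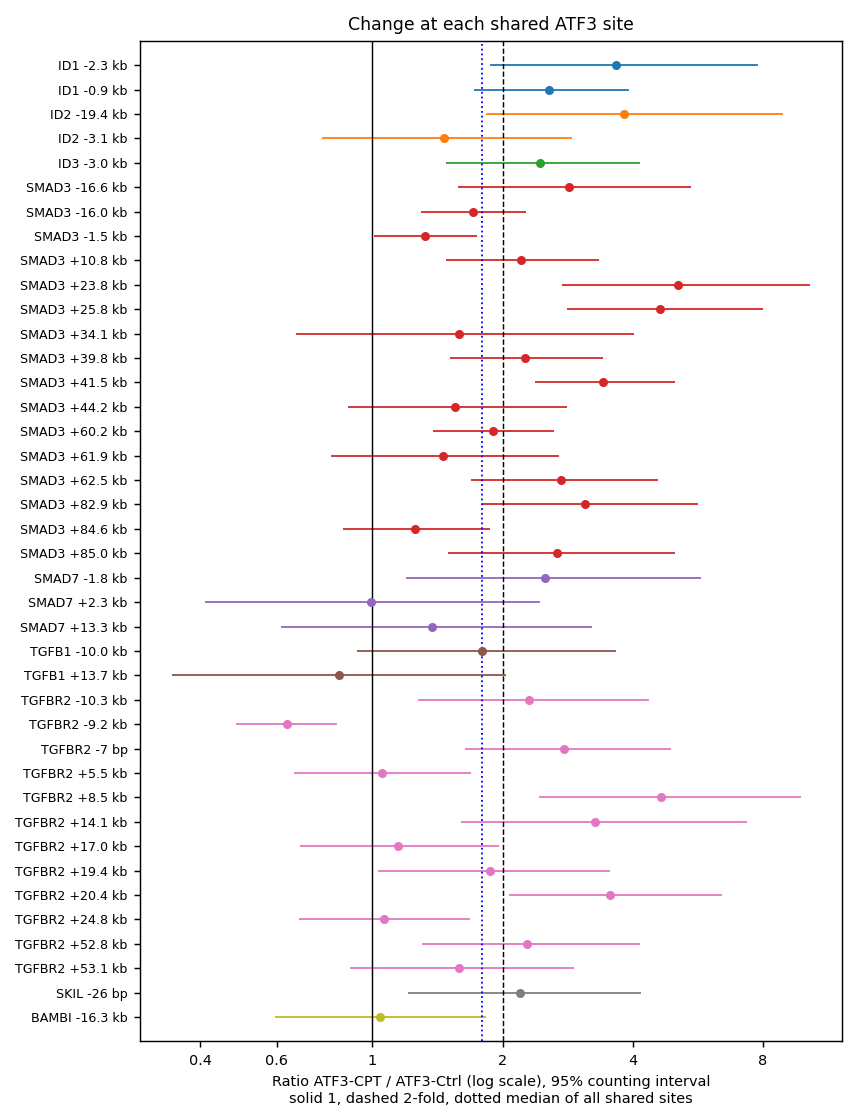
Ratio of heights, ATF3-CPT over ATF3-Ctrl, at each of the 40 shared sites (x axis, log scale), with 95% counting intervals as bars and the distance of the ATF3-Ctrl peak from the TSS beside the gene. Solid, dashed and dotted lines mark a ratio of 1, a ratio of 2 and the median of all shared sites, 1.795; under scaling by tags in peaks every ratio is multiplied by 0.439.

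*SMAD7*, the inhibitory SMAD induced by the pathway, had 4 peaks before and 6 after CPT. Its highest peaks lay in intron 2, at 19.3 (12.5 to 28.5) in ATF3-Ctrl and at 37.5 (28.5 to 48.5) in ATF3-CPT, with centres 126 bp apart and no overlap, so they were not counted as a shared site. The promoter site 1.8 kb upstream had 7.7 before and 19.4 after CPT (ratio 2.51, 1.20 to 5.76). In introns 1 and 3 the heights were 8.5 in ATF3-Ctrl and 8.4 and 11.6 in ATF3-CPT. *SKIL*, a corepressor of SMADs, had 1 ATF3 site, at its TSS, with 12.4 (7.1 to 20.1) before and 27.2 (19.6 to 36.7) after CPT. The ratio of 2.20 (1.21 to 4.19) became 0.965 under scaling by tags in peaks.

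All ATF3 peaks of the ID genes lay upstream of the TSS of the canonical transcript. *ID1* had the highest of them, 0.9 kb upstream of the TSS (chr20:30192123-30192247), with 25.5 (17.5 to 35.8) in ATF3-Ctrl and 65.3 (53.2 to 79.4) in ATF3-CPT. The ratio was 2.56 by library total (1.72 to 3.92, an interval for this scaling only). It was 1.428 relative to the median of all shared sites and 1.125 under scaling by tags in peaks, little above 1. The peak holds the ATF/CRE core 922 bp from the TSS. A further *ID1* site 2.3 kb upstream had 8.5 before and 31.1 after CPT (ratio 3.66, 1.87 to 7.81). The highest *ID1* peak in ATF3-Ctrl, at -11.9 kb, had 37.8 (49 tags), and a CPT peak with its centre 142 bp away had 60.2 (48.6 to 73.7). At *ID1*, therefore, each of the 3 ATF3-CPT peaks was higher than its nearest ATF3-Ctrl peak by library total, a scaling under which 80.4% of all shared sites were higher. The pair 142 bp apart did not overlap, so no ratio was taken for it under the other scalings.

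*ID2* had its highest ATF3-CPT peak 19.4 kb upstream, with 7.0 (3.2 to 13.2) before and 26.5 (19.0 to 36.0) after CPT (ratio 3.82, 1.83 to 8.93) and 2 AP-1 cores. Its highest ATF3-Ctrl peak, 3.1 kb upstream, had 12.4 and 18.1, and a promoter peak 1.7 kb upstream was seen in ATF3-Ctrl only, at 10.0 (5.3 to 17.2). Both ATF3-Ctrl peaks lie within the annotated *ID2* gene, which starts upstream of the canonical TSS. *ID3* had 1 shared site, 3.0 kb upstream, with 17.0 (10.6 to 25.7) before and 41.4 (31.9 to 52.9) after CPT (ratio 2.44, 1.48 to 4.16). Its 3 CPT-only peaks ranged from 5.8 to 14.9. Over the ID genes, 4 of 5 shared sites were at least 2-fold higher by library total, and under scaling by tags in peaks 4 of 5 were above 1 but none reached 2-fold.

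Ranked by the highest ATF3-CPT peak, the genes followed the order *SMAD3* (104.2), *ID1* (65.3), *TGFBR2* (64.0), *ID3* (41.4), *SMAD7* (37.5), *SKIL* (27.2), *ID2* (26.5), *BAMBI* (20.1) and *TGFB1* (19.4). The counting intervals of *SMAD3* and *ID1* did not overlap, and those of all other neighbours in this order did. In ATF3-Ctrl, *TGFBR2* (101.2) came before *SMAD3* (68.0) and *ID1* (37.8). A gene with many peaks has more chances of a high one, so the order also reflects peak number.

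Peaks lay away from the TSS at most of these genes. By the canonical transcripts, 22 of the 62 ATF3-CPT peaks were upstream of the TSS, 37 in introns and 3 past the transcript end. Of the 52 ATF3-Ctrl peaks, 17 were upstream and 35 intronic. The nearest TSS was that of the gene itself for 56 of 62 and 50 of 52 peaks. A peak within 2 kb of the TSS was present at 6 of 9 genes in ATF3-Ctrl (all genes 36.9%) and at 6 of 9 in ATF3-CPT (all genes 51.7%). *ID2* had such a peak before CPT only and *TGFB1* after CPT only, whereas *ID3* and *BAMBI* had none. Heights exceeded the median of the whole list for 36 of 52 ATF3-Ctrl peaks (list median 10.0) and for 49 of 62 ATF3-CPT peaks (list median 11).

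In sequence, 3 of the 62 ATF3-CPT peaks held the ATF/CRE core, at *ID1*, *SKIL* and *TGFB1* +32.0 kb, compared with 1.41% of all ATF3-CPT peaks. The AP-1 core was present in 22 of 62 (35.5%), near the 40.6% of all peaks. Neither SMAD motif searched was found in any of the 62 peaks, and both were rare in the whole list, at 0.0627% for the palindrome GTCTAGAC and 0.206% for the CAGA box AGCCAGACA (or TGTCTGGCT on the other strand). Matches this rare make their absence from 62 peaks uninformative. No other SMAD sequence was searched, so the peaks may hold other SMAD sites. The C/EBP palindrome, looked for after the sequences had been read, was present in 1 of 62, at *TGFBR2* -9.1 kb, and in 0.105% of all peaks. A match is a stretch of letters and not a binding site by itself. Shared sites with an AP-1 core had a median ratio of 2.28 (15 sites of these genes) and those without one 1.90 (25 sites). Over the 26906 shared sites on chromosomes 1 to 22, X and Y, where sequence was searched, the medians were 2.41 (10586 sites) and 1.37 (16320 sites).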

How the data were processed

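ChIP-seq was performed on 5 libraries of HCT116 cells, 1 per condition. The reads were aligned to hg19 with BWA (version 0.6.1) and peaks were called in each library separately with HOMER (version 4.1), as named in the submitters' processing notes. According to the file headers, the false discovery rate was 0.001, and a peak needed a fold of 4 over the local region of 10000 bp and a local Poisson p of 1e-04. The deposited peak lists give, for each peak, a signal (the normalized tag count, scaled by the authors to 10000000 tags of the library) and a findPeaks score, a tag number that the authors did not scale. The authors also deposited a focus fraction, fold ratios and a p-value against the local region, none of which was used here.

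Tags per peak were recovered from the signal and the library total. Poisson intervals of a height and conditional binomial intervals of a ratio were exact, and those of shares were Wilson intervals, all at 95%. With 1 library per condition no p-value was computed, a change was called at 2-fold, and intervals compare libraries, not conditions. A signal of 3 tags, taken as the floor, was 2.317 (ATF3-Ctrl), 1.941 (ATF3-CPT), 2.34 (ATF3-KO), 9.464 (p53-CPT) and 15.114 (p53-KO) after scaling. Genes and TSS were from GENCODE release 44 mapped to GRCh37, whose coordinates are those of hg19, and the canonical transcript gave the TSS. Promoters were 2 kb on either side of the TSS. For each gene, the highest ATF3-Ctrl and ATF3-CPT peaks, peaks within 2 kb of the TSS and every peak of the other libraries were named, and further sites were added after their values were seen. Of the other pathway genes, those with the 3 highest ATF3-CPT peaks and those without an ATF3 peak were to be named, and 1 of them is not reported here. The genes and gene lists were chosen with earlier results of these data known. Alternatives covered the window, the TSS, the score, the overlap, the scaling, the fold and the motif window, and those on the end of the canonical transcript, centres within 200 bp for ratios and the C/EBP palindrome were chosen later, with the data in view. Scripts (Python 3.11.15, numpy 2.4.6, scipy 1.17.1, pandas 2.3.3, pysam 0.24.0) were tested on simulated data.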

Additional observations from a re-analysis of the deposited data

How the results depend on the processing

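Of the summary values recomputed under the alternatives, 80 moved by less than the limits set, 13 moved and 1 reversed. The ratio of a single site stayed within its counting interval in 179 cases, left it in 57 and, where it had passed 2-fold, crossed 1 in 3. Most of the 179 came from the fold, overlap and centre alternatives, which left each ratio unchanged, so this number is no measure of stability. All of the 57 and the 3 came from the alternative scalings. Scaling by the median of all shared sites gave a median ratio of 1.226, with 5 sites higher and 2 lower. It left 23 of 40 ratios above 1, compared with 37 by library total, where 80.4% of all shared sites were above 1. Scaling by the tags that lie in peaks (a factor of 0.439) gave 0.965, with 3 higher and 6 lower, and left 17 of 40 above 1. Of the 21 sites that had been 2-fold higher, it turned *SMAD3* +10.8 kb to 0.966, *SMAD3* +39.8 kb to 0.987 and *SKIL* to 0.965. These shifts follow from the scaling itself. A 1.5-fold threshold gave 28 higher sites and 1 lower site. At a score of at least 20 in both lists, ATF3-Ctrl peaks numbered 21 and ATF3-CPT peaks 48, with 3 Ctrl-only and 30 CPT-only. Peaks over a listed peak of lower score counted among these. At this cut, 6 of the 9 genes had an ATF3-Ctrl peak and 9 an ATF3-CPT peak, and p53-CPT and p53-KO peaks were found at 0 of the 9 genes. Within 2 kb of the TSS, p53-CPT and p53-KO peaks were likewise found at 0. With the ATF3-CPT list cut to the length of the ATF3-Ctrl list by score, 12 of 49 peaks were CPT-only and 15 of 52 Ctrl-only, so the genes had fewer peaks after CPT than before. No paired analysis was possible because each condition had 1 library. Depth limited p53 in particular, whose lowest listed heights were 18.9 and 25.2, and weaker binding was not detectable.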

Other observations

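Other genes of the TGF-β and BMP pathways, 38 in number, had an ATF3-Ctrl peak at 25 and an ATF3-CPT peak at 34, where 64% and 80.3% of all protein-coding genes had one. Their windows held 68 ATF3-Ctrl and 141 ATF3-CPT peaks, of which 85 were CPT-only (60.3%, whole list 61.7%), and 33 of 56 shared sites (58.9%, all shared sites 43.6%) were at least 2-fold higher in ATF3-CPT by library total, with 0 lower (all shared sites 2.37%). Among the highest ATF3-CPT peaks were those at *BMP7*, a BMP ligand, with 54.1 before and 109.3 after CPT (ratio 2.02, 1.52 to 2.71), and at *BMPR1B*, a BMP receptor, with 35.5 and 99 (2.79, 1.99 to 3.96). By role, CPT-only peaks were 8 of 13 at ligands, 25 of 36 at receptors, 25 of 37 at SMADs, 17 of 31 at inhibitors and 10 of 24 at targets. No ATF3 peak was found at *BMP2*, *TGFBR1*, *ACVR2B* or *ID4*, the remaining ID gene. An ATF3-KO peak was present at 1 of the 38 genes, *SMAD2* (all genes 11.1%), and p53-CPT and p53-KO peaks at 13 and 9 (all genes 20.8% and 16.6%).

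The ratio also varied with the height before CPT. At the 9 genes, 12 shared sites with at least 20 in ATF3-Ctrl had a median ratio of 1.52 and 28 sites under 20 had 2.37, compared with 1.50 and 1.88 over all shared sites. The ATF3-Ctrl height is part of the ratio, so these measures are not independent, and a site just over the calling threshold in ATF3-Ctrl had to be called there to count as shared.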
